A study of Mus musculus with 9 samples.

Results

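The heat shock chaperones described here are 10 genes chosen by their symbols: Hspa1a, Hspa1b, Hspa8, Hsph1 and Dnajb1 of the HSP70 system, Hsp90aa1 and Hsp90ab1 of the HSP90 system, the small heat shock protein Hspb1, and the mitochondrial chaperonin genes Hspd1 and Hspe1. All 10 were found among the 22587 genes of the tables, and all 10 passed the filter on low counts that left 21287 genes for testing. They were measured by RNA sequencing of whole eyeballs from female BALB/C mice of wild-type genotype, taken at postnatal day 56, with 3 libraries in each of 3 groups. CON mice had no injection and drank water. DES mice received scopolamine, a blocker of muscarinic acetylcholine receptors used to produce dry eye, by intraperitoneal injection, and drank water. T.chuii mice received the same injection and 300 mg/kg of the microalga Tetraselmis chuii. Feeding ran for 2 weeks from 6 weeks of age. The comparisons ask how the eye's RNA differs after scopolamine, and after the alga in injected mice. Since CON mice were not injected, scopolamine and the injection itself cannot be told apart. Whether each library is a different animal is not said in the labels, so a p-value here measures only how far libraries spread, which may be technical.

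Heat shock chaperones hold unfolded proteins, refold them or pass them on. In the classical heat shock response, unfolded protein releases heat shock factor HSF1, which binds repeats of the short unit GAA and its reverse complement TTC in promoters and raises transcription of genes such as Hspa1a and Hspa1b within minutes to hours. Hspa8 and Hsp90ab1 are made at all times in most cells, and the small heat shock proteins are also abundant in unstressed lens, muscle and epithelium.

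Promoter windows from RefSeq (GRCm38.p6, the C57BL/6J reference and not the BALB/C genome) were matched for 7 of the 10 genes, in 10 windows of 250 bases before to 50 bases after a start. Windows for Hspa8, Hsp90aa1 and Hsp90ab1 were not used here. The windows were searched on both strands for pairs of facing units, GAANNTTC and TTCNNGAA, each of which is its own reverse complement, and for runs of 3 units, GAANNTTCNNGAA and TTCNNGAANNTTC, which contain the pairs. The stretches below are shown because they hold the copies and the sites that the members share. Capitals mark the matches, and each run is written 5' to 3' on the gene's own strand, ending at the base before the start.
Hspa1a, chr17:34972157-34972406, minus strand: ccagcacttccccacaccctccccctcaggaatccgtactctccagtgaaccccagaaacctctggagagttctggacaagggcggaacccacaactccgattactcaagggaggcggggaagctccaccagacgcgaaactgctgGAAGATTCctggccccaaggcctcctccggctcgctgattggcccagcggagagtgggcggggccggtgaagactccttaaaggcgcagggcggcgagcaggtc
Hspa1b, chr17:34959239-34959488, minus strand: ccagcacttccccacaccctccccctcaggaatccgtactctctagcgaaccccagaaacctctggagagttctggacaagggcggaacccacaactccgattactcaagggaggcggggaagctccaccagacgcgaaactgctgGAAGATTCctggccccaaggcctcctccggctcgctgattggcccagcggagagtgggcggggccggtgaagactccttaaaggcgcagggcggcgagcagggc
Hspb1, chr5:135887769-135887918, plus strand: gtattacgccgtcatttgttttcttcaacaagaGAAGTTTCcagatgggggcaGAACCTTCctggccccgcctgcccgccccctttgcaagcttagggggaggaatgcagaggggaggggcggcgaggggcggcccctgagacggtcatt
Hspe1, chr1:55088028-55088147, plus strand: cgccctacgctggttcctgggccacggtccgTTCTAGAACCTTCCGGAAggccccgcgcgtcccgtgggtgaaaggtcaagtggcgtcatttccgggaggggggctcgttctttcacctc
Hsph1, chr5:149636337-149636436, minus strand: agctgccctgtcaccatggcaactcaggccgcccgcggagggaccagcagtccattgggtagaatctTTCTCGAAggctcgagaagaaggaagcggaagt

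Hspa1a and Hspa1b have the same pair of facing units at the same distance, 104 bases before the start. Their windows of 300 bases differed at 4 bases, with 98.7% identity. Counted from the first base of the window, with the base of Hspa1a first, the differences were C44T, T47C and T249G before the start and C276T after it. The Hspb1 promoter holds 2 pairs, 117 and 97 bases before its start. Hspd1 and Hspe1 lie head to head on chromosome 1 and their transcribed regions overlap by 96 bases. They share 1 block of 18 bases with 2 overlapping runs of 3 units. It begins 89 bases before the Hspe1 start and, read on the other strand, 144 bases before the Hspd1 start of the window used. The RefSeq bounds of Hspd1, from which the overlap is taken, reach base 55088243. By those bounds the block, at 55088059 to 55088076, lies inside Hspd1. Hsph1 has a pair 33 bases before the start of this window and a run of 3 units from base 37, the start being base 1. The RefSeq bounds of Hsph1 reach base 149636498. By those bounds the pair, at 149636362 to 149636369, and the stretch shown also lie inside Hsph1. A pair was found in 7 of the 10 windows, which belong to 6 of the 7 members, and in 15.1% of all 32851 windows. A run of 3 units was found in 4 of the 10 windows, which belong to Hsph1, Hspd1 and Hspe1, and in 0.603% of all windows. These windows are not independent. The Hsph1 windows overlap and hold the same sites, Hspd1 and Hspe1 share their block, and Hspa1a and Hspa1b are copies. In the 250 bases before the start alone, a run was found in 2 of the 10 windows, those of Hspd1 and Hspe1, and in 0.466% of all windows. Dnajb1 had neither within its window, which says only that these letters are not in it.

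Library totals lay between 39.1 and 64.6 M reads. Whole eyes hold many tissues, and the libraries differed in their make-up. Reads of 14 corneal epithelium markers (14 of 14 found) held 3.41 to 8.13% of reads in CON, 2.95 to 5.39% in DES and 1.68 to 4.91% in T.chuii. Reads of 15 rod photoreceptor markers (15 of 15 found) held 1.94 to 4.25% in CON, 1.94 to 5.47% in DES and 1.10 to 4.69% in T.chuii. The ratio of corneal to rod reads was 4.19 for library CON 2, 2.78 for library DES 1 and 4.45 for library T.chuii 1, and between 0.415 and 0.967 for the other 6 libraries. The deposited values hold no count of 0, the smallest of any gene in any library being 1, so no marker that was found could be at 0. Each group thus had 1 library with relatively more corneal and less retinal RNA. In bulk tissue, fewer cells of a type and less RNA per cell cannot be told apart.

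Levels of different genes were compared in FPKM, which divides reads by transcript length. By the mean of 9 libraries the order was Hspb1 at 564 FPKM, Hspa8 at 559 FPKM, Hsp90aa1 at 354 FPKM and Hsp90ab1 at 246 FPKM, followed by Hspe1 at 95.8 FPKM, Hspa1b at 93.9 FPKM, Hspd1 at 80.3 FPKM, Hspa1a at 67.3 FPKM, Dnajb1 at 39.9 FPKM and Hsph1 at 17.5 FPKM. Hspb1 and Hspa8, ranked 103 and 104 among all genes, did not differ beyond their spread, as Hspb1 ranged from 304 to 784 FPKM and Hspa8 from 403 to 720 FPKM. Hspe1, Hspa1b, Hspd1 and Hspa1a also overlapped one another. Hsph1, a nucleotide exchange factor of the HSP110 family, was lowest of the 10 in all 9 libraries. The 10 genes together held 0.396 to 0.475% of reads.

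Levels of 1 gene across libraries are given in CPM, its read count relative to the size of the library, scaled between libraries. No member passed the test in any comparison. Limma-voom with all 9 libraries in 1 fit and Benjamini-Hochberg adjustment over 21287 genes called 0 of 10 members in DES vs CON, in T.chuii vs DES and in T.chuii vs CON, where it called 0.0% of all genes. At an unadjusted p under 0.05 the fit held 0, 0 and 1 of the 10 members, and 1.1%, 1.09% and 4.28% of all genes. Limma-trend on log2(CPM + 1) or log2(FPKM + 1) also called 0 members in each comparison. The log2(FPKM + 1) fit held 3 of 10 members in T.chuii vs CON at an unadjusted p under 0.05, and 1078 of 21287 genes. By CPM, in none of the 10 genes were the libraries of 1 group all above or all below those of another. Among all genes the groups did not overlap by CPM in 3.65% for DES vs CON, 4.8% for T.chuii vs DES and 8.42% for T.chuii vs CON. By FPKM, all T.chuii libraries lay below all CON libraries for Hspa1a, Hspa1b and Dnajb1, and below all DES libraries for Dnajb1. The share of all genes without overlap was not counted in FPKM. The 3 comparisons share libraries, so their values are not independent of one another.

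**Figure D1:**
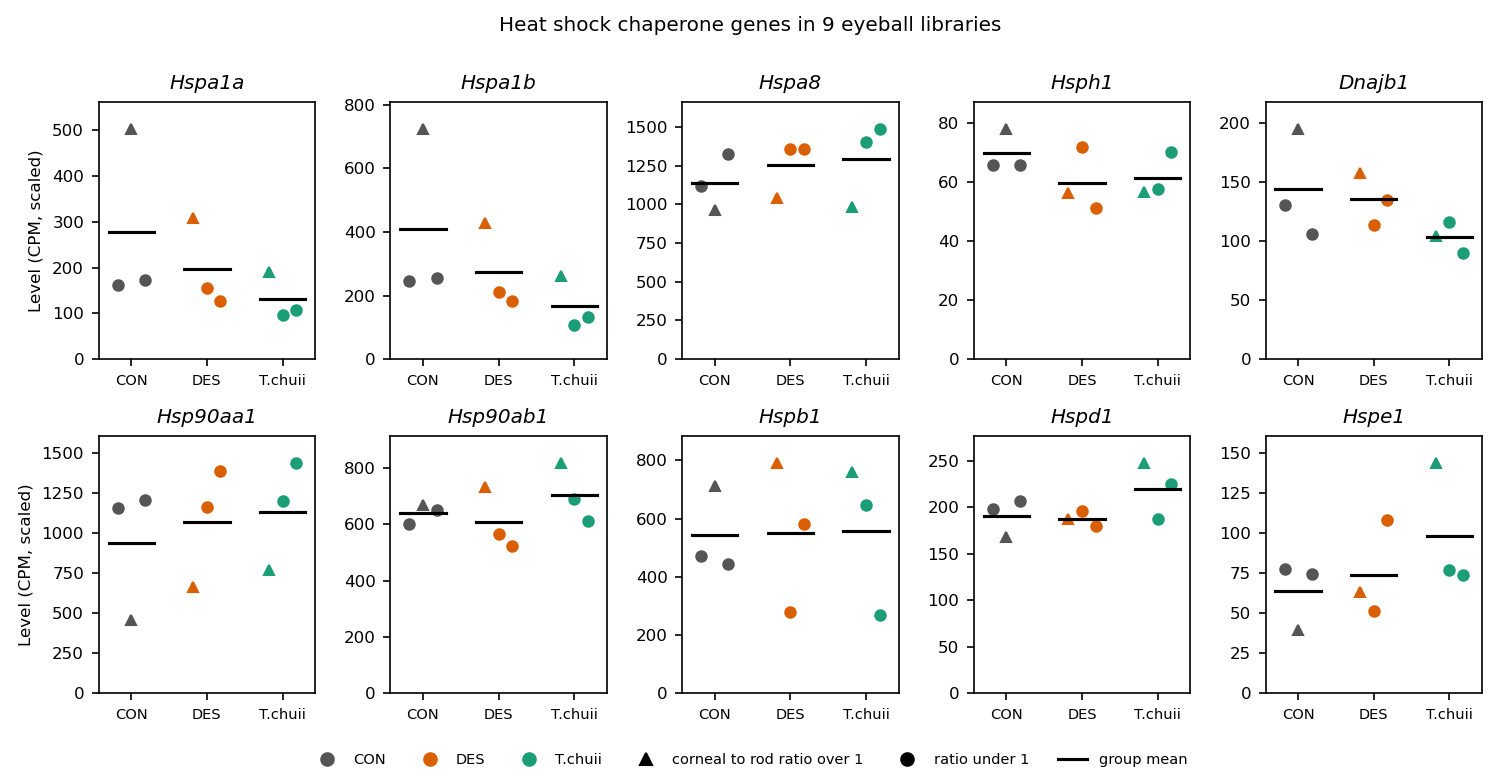
Level of each of the 10 genes in each library (y axis, scaled CPM from 0, x axis, group), with 1 symbol per library, triangles for the libraries with a corneal to rod ratio over 1 and a black line at the group mean. Hspa1b reached 722 CPM in CON 2 and was 106 CPM in T.chuii 2, and in none of the 10 genes do the points of any pair of groups separate.

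The stress-inducible HSP70 genes Hspa1a and Hspa1b varied most. Hspa1a stood at 161, 502 and 173 CPM in CON 1 to 3, at 307, 155 and 127 CPM in DES 1 to 3, and at 191, 95.9 and 106 CPM in T.chuii 1 to 3. Hspa1b stood at 246, 722 and 254 CPM in CON, at 428, 212 and 182 CPM in DES, and at 263, 106 and 133 CPM in T.chuii. In both genes CON 2, DES 1 and T.chuii 1 were the highest libraries of their groups, and all 3 groups overlapped in CPM. In FPKM the T.chuii libraries of both genes lay below all those of CON. The mean of Hspa1b was 408 ± 273 CPM in CON, 274 ± 134 CPM in DES and 167 ± 83.8 CPM in T.chuii (SD, n = 3). Its log2 change in T.chuii vs CON was -1.19 ± 0.49 (SE, 95% interval -2.28 to -0.10), a fold of 0.438, with a limma-voom adjusted p of 0.986 and an unadjusted p of 0.0352. For Hspa1a the same comparison gave -0.94 ± 0.48 (limma-voom adjusted p = 0.986). DES vs CON gave -0.40 ± 0.48 for Hspa1a and -0.48 ± 0.50 for Hspa1b, and T.chuii vs DES gave -0.54 ± 0.47 and -0.71 ± 0.48, each with a limma-voom adjusted p of 1. Without CON 2, the highest library, DES vs CON turned to 0.12 ± 0.41 for Hspa1a and 0.02 ± 0.46 for Hspa1b, and T.chuii vs CON shrank to -0.41 ± 0.41 and -0.69 ± 0.45.

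The coding sequences of Hspa1a and Hspa1b are 99.4% identical, and 68.1% of 100-base stretches of the Hspa1a coding sequence occur unchanged in Hspa1b, so reads may have been divided between the copies. Against the constitutive Hspa8, identity was 74.1% for Hspa1a and 74.4% for Hspa1b, and no 100-base stretch was shared. Summing both copies before the fit gave a T.chuii vs CON change of -1.08 ± 0.49 on the log2 scale (limma-voom adjusted p = 0.986). Hspa1b supplied 60.5, 59.0 and 59.5% of the reads of the pair in CON 1 to 3, 58.2, 57.8 and 58.9% in DES 1 to 3, and 58.0, 52.5 and 55.6% in T.chuii 1 to 3. The share was above 50 percent in all 9 libraries, and the lowest shares were those of T.chuii 2 and T.chuii 3. Over 9 libraries log2 CPM of the copies had a Pearson r of 0.99, and over the 6 libraries with a ratio under 1 it was also 0.99.

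Part of the spread within groups moved with tissue make-up. In the 3 libraries with a corneal to rod ratio over 1, Hspa1a, Hspa1b and Hspb1 were higher than in all of the other 6 (3 of 10 members, against 13.1% of all genes), and Hspa8 and Hsp90aa1 were lower than in all of the other 6 (2 of 10 members, against 13.8%). Hspa1a and Hspa1b are near-identical copies between which reads may have been divided, so they are not separate observations in that count. Median Hspa1b was 428 CPM in these 3 libraries and 197 CPM in the other 6. Median Hsp90aa1 was 663 CPM against 1206 CPM. The 3 libraries were picked by their marker reads and come from 1 group each, so this is a description and no comparison of the study's groups. The part that tissue make-up has in these levels was not tested.

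**Figure D2:**
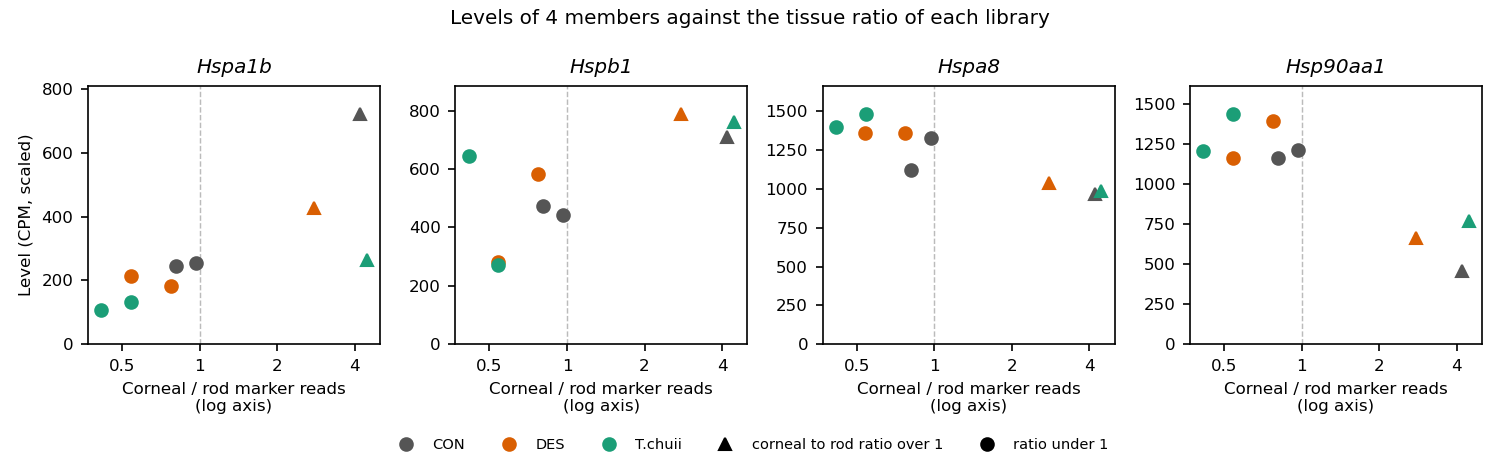
Level of Hspa1b, Hspb1, Hspa8 and Hsp90aa1 (y axis, scaled CPM from 0) against the ratio of corneal to rod marker reads (x axis, log scale), 1 symbol per library, coloured by group, with a dashed line at a ratio of 1. The 3 triangles on the right lie above the other 6 libraries for Hspa1b and Hspb1 and below them for Hspa8 and Hsp90aa1.

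Within each kind of library, Hspa1a and Hspa1b followed the order CON, DES, T.chuii. Among the 3 corneal-rich libraries Hspa1b was 722 CPM in CON 2, 428 CPM in DES 1 and 263 CPM in T.chuii 1. Among the other 6 it was 246 and 254 CPM in CON, 212 and 182 CPM in DES, and 106 and 133 CPM in T.chuii, with no overlap between groups. Hspa1a followed the same order without overlap, at 502, 307 and 191 CPM in the 3 corneal-rich libraries, and at 161 and 173, then 155 and 127, then 95.9 and 106 CPM in the other 6. This pattern was noticed after the values had been seen. It held for 2 of the 10 members, which are near-identical copies, and for 0.813% of all genes. Without CON 2, DES 1 and T.chuii 1, which leaves 2 libraries a group, Hspa1b changed by -1.09 ± 0.21 in T.chuii vs CON (limma-voom adjusted p = 0.428) and Hspa1a by -0.74 ± 0.20 (adjusted p = 0.477). With the log2 corneal to rod ratio as a covariate over all 9 libraries, the changes were -0.93 ± 0.21 (limma-voom adjusted p = 0.205) and -0.70 ± 0.24 (adjusted p = 0.337). The step from CON to DES was -0.27 ± 0.21 for Hspa1a and -0.36 ± 0.21 for Hspa1b without the 3 libraries, and -0.18 ± 0.24 and -0.25 ± 0.21 with the covariate. With sample quality weights over all 9 libraries it was -0.01 ± 0.31 and -0.11 ± 0.33. None of these passed the threshold. For T.chuii vs CON the standard errors were smaller without the 3 libraries and with the covariate than with all 9 libraries and no covariate, and neither gene passed the threshold. The 3 libraries were the highest of their groups for both genes, and the covariate sets the same libraries apart. Smaller standard errors thus follow from that choice and are no support for the order.

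Other marker sums also differed between libraries. Lens fibre markers (12 of 14 found) held 0.0241 to 0.0311% of reads in CON, 0.0433 to 4.26% in DES and 1.24 to 6.23% in T.chuii, so they ran opposite to the Hspa1 genes in T.chuii vs CON. Mueller glia markers (7 of 7 found) held 0.458 to 0.529% of reads in CON, 0.451 to 0.517% in DES and 0.583 to 0.719% in T.chuii, without overlap between T.chuii and the others. Fast muscle markers (15 of 15 found) held 0.0909 to 0.281% in CON, 0.154 to 0.894% in DES and 0.397 to 1.67% in T.chuii. Lens fibre and fast muscle shares were both higher in T.chuii than in CON without overlap, and lens fibre shares were also higher in DES than in CON without overlap. Adipocyte markers (3 of 7 found) held 0.00042 to 0.00318% of reads in CON, 0.00131 to 0.00399% in DES and 0.00886 to 0.142% in T.chuii, also without overlap between T.chuii and the others. Erythroid markers (5 of 6 found) held 0.0142 to 0.0939% of reads in CON, 0.0423 to 0.0567% in DES and 0.0299 to 0.259% in T.chuii. Macrophage markers (10 of 10 found) held 0.0197 to 0.0443% of reads over the 9 libraries, and the groups overlapped. Their part in the Hspa1 values was not tested.

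Hspa8, the constitutive HSP70 of the cytosol, was at 1121, 966 and 1326 CPM in CON 1 to 3, at 1039, 1358 and 1360 CPM in DES 1 to 3, and at 984, 1402 and 1485 CPM in T.chuii 1 to 3. Its lowest library in each group was the corneal-rich one, the reverse of Hspa1a and Hspa1b. The log2 change was 0.14 ± 0.26 in DES vs CON, 0.03 ± 0.26 in T.chuii vs DES and 0.17 ± 0.26 in T.chuii vs CON. The 3 small nucleolar RNA genes within Hspa8 did not exceed 0.301 CPM. In FPKM the inducible pair together reached 95.1% of the Hspa8 level for library CON 2, 53.0% for library DES 1 and 34.4% for library T.chuii 1. In the other 6 libraries CON 1 and CON 3 stood at 27.2 and 24.2%, DES 2 and DES 3 at 20.2 and 16.9%, and T.chuii 2 and T.chuii 3 at 10.8 and 12.0%.

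Dnajb1, the J-domain partner that hands substrates to HSP70, was at 131, 195 and 106 CPM in CON, 158, 114 and 135 CPM in DES, and 104, 116 and 90.05 CPM in T.chuii. T.chuii 2 lay within the range of both other groups, and CON 2 was the highest of the 9. Its log2 change was -0.05 ± 0.25 in DES vs CON, -0.38 ± 0.25 in T.chuii vs DES and -0.44 ± 0.25 in T.chuii vs CON (limma-voom adjusted p = 0.986), and without CON 2 the last was -0.20 ± 0.22. Hsph1 was at 65.5, 77.8 and 65.6 CPM in CON, 56.2, 71.7 and 51.1 CPM in DES, and 56.6, 57.4 and 70.0 CPM in T.chuii. The highest Hsph1 library was CON 2 and the lowest DES 3, and the groups overlapped. Its log2 change was -0.23 ± 0.20 in DES vs CON and -0.19 ± 0.20 in T.chuii vs CON. Of the 4 stress-inducible HSP70-system genes, Hsph1 thus had the smallest range, 1.52-fold from lowest to highest library, against 6.82-fold for Hspa1b, 5.23-fold for Hspa1a and 2.17-fold for Dnajb1.

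**Figure D3:**
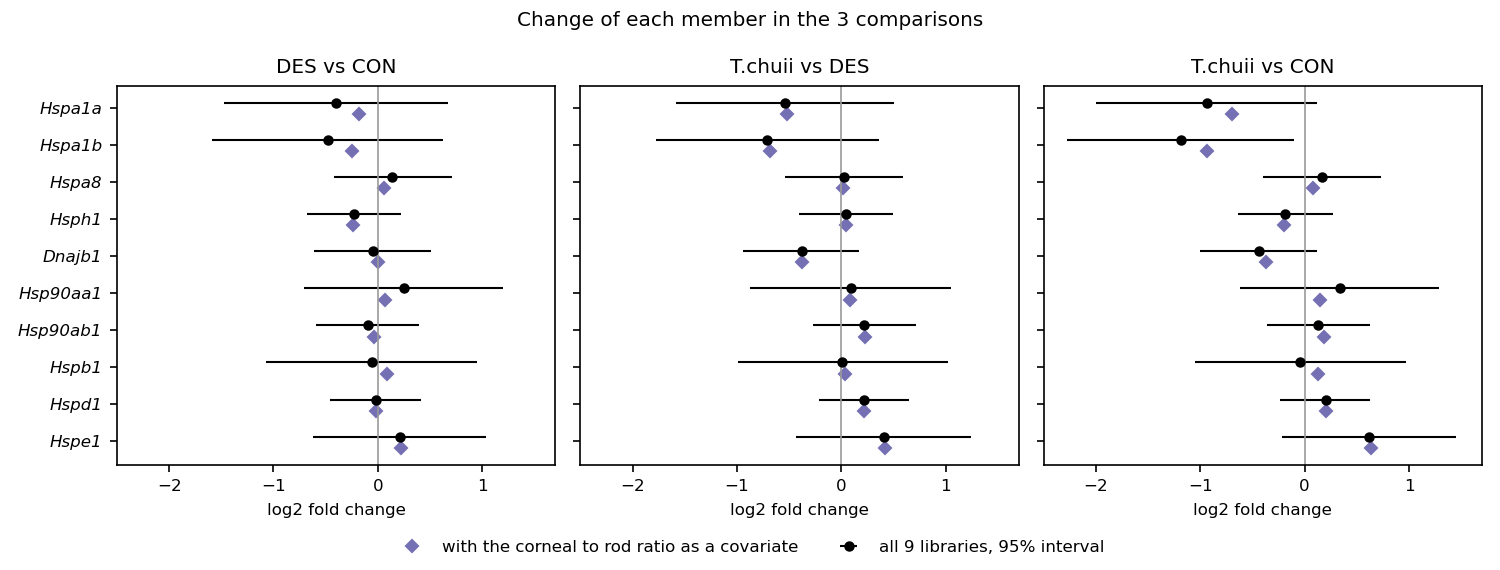
Log2 fold change of each gene (rows) in DES vs CON, T.chuii vs DES and T.chuii vs CON (panels), with black points and 95% intervals from the fit of all 9 libraries and purple diamonds for the fit with the corneal to rod ratio as a covariate. The interval of Hspa1b in T.chuii vs CON, -2.28 to -0.10, is the 1 interval of 30 that does not cross 0, before adjustment over all genes.

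The cytosolic HSP90 proteins mature kinases and steroid receptors, and are coded by the more stress-responsive Hsp90aa1 and the constitutive Hsp90ab1. Hsp90aa1 was at 1160, 457 and 1209 CPM in CON, 663, 1163 and 1390 CPM in DES, and 768, 1203 and 1437 CPM in T.chuii. The lowest library of each group was again the corneal-rich one, and the other 6 lay within 1160 to 1437 CPM. Hsp90ab1 was at 602, 669 and 650 CPM in CON, 733, 566 and 524 CPM in DES, and 816, 690 and 611 CPM in T.chuii. It was highest in the corneal-rich library of each group. The T.chuii vs CON log2 change was 0.34 ± 0.43 for Hsp90aa1 and 0.13 ± 0.22 for Hsp90ab1 (limma-voom adjusted p = 0.986 and 0.989), and without CON 2 that of Hsp90aa1 was -0.11 ± 0.38. In FPKM, Hsp90aa1 over Hsp90ab1 was 1.69, 0.601 and 1.64 in CON 1 to 3, 0.795, 1.81 and 2.33 in DES 1 to 3, and 0.828, 1.53 and 2.07 in T.chuii 1 to 3. The balance of the HSP90 genes was thus below 1 in the 3 corneal-rich libraries and above 1 in the other 6.

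Hspb1, a small heat shock protein (HSP27 in humans) that binds unfolded protein and actin filaments, was at 473, 710 and 443 CPM in CON, 790 (DES 1), 280 and 582 CPM in DES, and 761, 646 and 271 CPM in T.chuii. The group means were nearly equal, at 542 ± 146, 550 ± 256 and 559 ± 256 CPM (SD, n = 3), and each group spanned more than the differences between them. The log2 change was -0.06 ± 0.46 in DES vs CON, 0.01 ± 0.45 in T.chuii vs DES and -0.04 ± 0.46 in T.chuii vs CON, with 95% intervals reaching about 1 to either side. The 3 corneal-rich libraries held the 3 highest values.

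Hspd1 and Hspe1 code for the barrel and the lid of the mitochondrial chaperonin, HSP60 and HSP10. Hspd1 was at 198, 168 and 207 CPM in CON, 187, 196 and 180.3 CPM in DES, and 247, 187 and 226 CPM in T.chuii. It was the steadiest of the 10 genes, with an SD of 0.17 in log2 CPM over 9 libraries, and 10.3% of the 11030 genes with a mean of at least 10 CPM had a smaller one. Hspe1 was at 77.3, 39.4 and 74.5 CPM in CON, 62.9, 51.1 and 108 CPM in DES, and 143 (T.chuii 1), 76.7 and 74.1 CPM in T.chuii. CON 2 was its lowest library and T.chuii 1 its highest, both of them corneal-rich. The T.chuii vs CON log2 change was 0.20 ± 0.20 for Hspd1 and 0.62 ± 0.38 for Hspe1 (limma-voom adjusted p = 0.986 for each). Without CON 2, DES 1 and T.chuii 1 the Hspe1 change was -0.02 ± 0.30. The genes share a promoter region and their proteins work as 1 complex, but Hspe1 over Hspd1 in FPKM ran from 0.726 in CON 2 to 1.85 in DES 3. Processed copies of Hspd1 were low, with Hspd1-ps3 at 2.94 to 6.57 CPM.

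**Figure D4:**
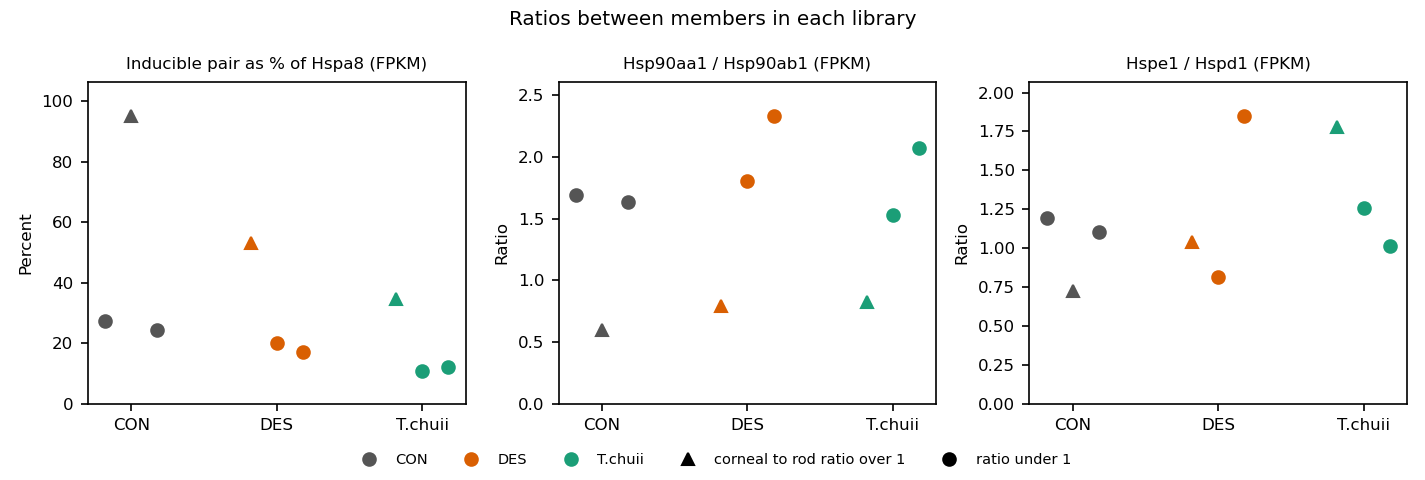
Ratios between members in FPKM (y axes from 0) in each library by group (x axis), for Hspa1a plus Hspa1b as percent of Hspa8, Hsp90aa1 over Hsp90ab1, and Hspe1 over Hspd1, with triangles for the corneal-rich libraries. The first ratio is highest (34.4 to 95.1%) and the second lowest (0.601 to 0.828) in the 3 triangles, while the third shows no such split.

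Apart from the Hspa1 copies, the members did not move as 1 block. The SD of log2 CPM over 9 libraries was 0.83 for Hspa1b and 0.75 for Hspa1a, larger than in 96.2% and 94.0% of the 11030 genes, and 0.19 for Hsp90ab1 and 0.20 for Hsph1, larger than in 16.1% and 17.5%. The sum of the 10 genes stayed between 4168 and 4639 CPM, with Hspa8 and Hsp90aa1 low in the libraries where Hspa1a, Hspa1b and Hspb1 were high. Among the 6 libraries with a ratio under 1, r was 0.60 between Hspa8 and Hsp90aa1, -0.64 between Hspa1a and Hspa8, -0.37 between Hspd1 and Hspe1 and -0.85 between Hsph1 and Hspb1. With 6 points that share scaling and tissue make-up these values are descriptions.

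Of 11020 other genes with a mean of at least 10 CPM, those whose log2 CPM over 9 libraries was most like the mean of Hspa1a, Hspa1b, Hsph1 and Dnajb1 were Rin2, Gemin4, Pak4 and Hook2, each with a Pearson r of 0.989, Als2cl and Aco1 with 0.988, Baiap2 with 0.987 and Itpkc with 0.986. None is a chaperone gene of the lists used here. The mean of Hspd1 and Hspe1 was most like Mrps36 at 0.983, Atp5j at 0.982, Micos10 at 0.977, Gm12338 at 0.976, Ndufb6 and Atp5md at 0.974, Atp5h at 0.973 and Ndufa12 at 0.972. Mrps36, Atp5j, Micos10, Ndufb6, Atp5md, Atp5h and Ndufa12 carry symbols of mitochondrial proteins. The members were averaged without equalising their spread. Hspa1a and Hspa1b (SD 0.75 and 0.83 in log2 CPM) thus shaped the first mean more than Hsph1 (0.20) and Dnajb1 (0.34). Hspe1 (0.55) likewise shaped the second more than Hspd1 (0.17). Hsph1 had an r of 0.35 with Hspa1a, and Hspd1 an r of 0.64 with Hspe1, so the matches are not to a pattern that all averaged members share. The r values with other genes span libraries that differ in corneal and rod reads. Of the members averaged here, Hspa1a and Hspa1b separated by that split, while Hsph1, Dnajb1, Hspd1 and Hspe1 overlapped across it. The part of tissue make-up in these r values was not tested.

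None of 153 tested genes in 12 lists of other stress and chaperone genes passed the test in any comparison, and at an unadjusted p under 0.05 limma-voom held 6 in DES vs CON, 1 in T.chuii vs DES and 14 in T.chuii vs CON, where the shares over all genes were 1.1%, 1.09% and 4.28%. Cryaa and Cryab of the lens are among these genes. Hsf1, the master regulator of the heat shock response, was at 32.6, 37.9 and 24.8 CPM in CON, 30.8, 30.1 and 23.2 CPM in DES, and 27.7, 27.1 and 24.3 CPM in T.chuii. Its groups overlapped, with a T.chuii vs CON log2 change of -0.25 ± 0.22. Hsf2, a second factor of the family, changed by 0.15 ± 0.33, and Hsf4, which acts in the lens, by 0.89 ± 0.68 with its highest level, 4.71 CPM, in T.chuii 2, the library richest in lens markers. Bag3, an HSP70 partner that is itself induced by heat, was at 41.1 CPM in CON 2, 38.0 CPM in DES 1 and 45.6 CPM in T.chuii 1, and at 15.2 to 24.7 CPM in the other 6 libraries. Bag3 thus shared the corneal-rich split with Hspa1a and Hspa1b but not their order of groups, its T.chuii vs CON change being -0.33 ± 0.44.

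Counts over lists are of log2 changes above or below 0, and over all genes tested 52.4% of changes were below 0 in DES vs CON, 54.9% in T.chuii vs DES and 55.4% in T.chuii vs CON. Other HSP70 and HSP110 proteins had log2 changes below 0 in T.chuii vs CON in 9 of 11 genes (median log2 change -0.08, against -0.04 over all genes tested), with Hyou1, the HSP110 relative of the endoplasmic reticulum, at -0.63 ± 0.26. The 2 other HSP90 proteins did not lean one way, and Trap1 of the mitochondria changed by -0.16 ± 0.28. Of 8 other small heat shock proteins, 7 had log2 changes above 0 in DES vs CON (median 0.66, against -0.02 over all genes) and 8 in T.chuii vs CON (median 1.33, against -0.04). Cryaa and Cryab, the alpha crystallins of the lens, led them. Hspb3, Hspb6, Hspb2 and Hspb7 followed in T.chuii vs CON, at 2.33 ± 0.78, 1.35 ± 0.47, 1.30 ± 0.53 and 1.22 ± 0.72. They were highest in T.chuii 1, DES 1 and T.chuii 2, which held the most fast muscle reads (1.67, 0.894 and 0.879%). Hspb8 and Hspb11 changed by 0.16 ± 0.34 and 0.36 ± 0.42. The part of muscle RNA in these levels was not tested. Cryaa was at 0.261, 12.7 and 0.268 CPM in CON 1 to 3, at 28020, 154 and 20140 CPM in DES 1 to 3 and at 18720, 38280 and 8386 CPM in T.chuii 1 to 3. The lens fibre markers, which include Cryaa and Cryab, held 1.24% or more of reads in DES 1, DES 3 and T.chuii 1 to 3, where Cryaa was at 8386 CPM or more, and at most 0.0433% in the other 4 libraries, where it was at most 154 CPM. Cryaa itself supplied much of that share in the lens-rich libraries, so this match was fixed in advance. Within CON, Cryaa did not follow the share, since CON 2 had the lowest share of the 9 libraries and the highest Cryaa of its group. Cryaa did not pass the test (limma-voom adjusted p = 1 in DES vs CON and 0.98 in T.chuii vs CON). Among the 6 libraries with a corneal to rod ratio under 1, Hspb1 was highest in DES 3 and T.chuii 2, which held the most lens fibre reads of the 6, and lowest in T.chuii 3, which held 1.24%. The part of lens RNA in the Hspb1 level was not tested.

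Among 28 other J-domain genes, partners that stimulate HSP70, 17 had log2 changes above 0 and 11 below 0 in T.chuii vs CON (median 0.04). Of 12 HSP70 nucleotide exchange factors and regulators, 8 had log2 changes below 0 in T.chuii vs CON (median -0.07), and of 19 HSP90 co-chaperones 13 did (median -0.11). Fkbp5, a co-chaperone of steroid receptors, was at 58.3, 85.5 and 29.0 CPM in CON, 19.1, 22.7 and 32.1 CPM in DES, and 24.7, 25.8 and 25.4 CPM in T.chuii, a log2 change of -1.14 ± 0.36 in DES vs CON (limma-voom adjusted p = 1). Unc45b, the myosin chaperone of striated muscle, changed by 1.80 ± 0.80 in T.chuii vs CON and was highest in T.chuii 1 and DES 1, the libraries with the most fast muscle reads. For the 8 subunits of TRiC, the cytosolic chaperonin, 7 had log2 changes above 0 in DES vs CON (median 0.13) and 8 below 0 in T.chuii vs DES (median -0.14), with no subunit past the test. For the 8 prefoldin genes, which feed TRiC, 7 had log2 changes above 0 in T.chuii vs CON (median 0.19). Of 12 mitochondrial quality control genes 9 had log2 changes below 0 in T.chuii vs CON (median -0.13), while those of the chaperonin pair Hspd1 and Hspe1 were above 0.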

How the data were processed

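Read counts and FPKM were deposited per gene for 9 eyeball libraries, per the file headers. The kit for stranded mRNA libraries is given per the labels. Alignment tools named per the submitters' processing notes are HISAT2 2.1.0 and Bowtie2 2.3.4.1, with StringTie 2.1.3b, Trimmomatic 0.38, FastQC 0.11.7 and build mm10. The counting step and its strand setting are not given in the sources used here. Both values were taken by counting cells from the end of a line, because only 9044 of 22587 rows have the header's 6 cells. Sample numbers in the file headers differ from those in the titles, which were used.

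Genes with 10 reads per library of median size in 3 libraries and 15 in total were tested (21287). After TMM scaling (trimmed means of M-values), limma-voom (limma 3.58.1, R 4.3.3) was run on the deposited counts with 3 group means, 6 residual degrees of freedom, two-sided, adjusted p under 0.05. The procedure was tested on simulated counts with the same spread setting for every gene and no differences in tissue make-up. That test therefore does not show which changes the procedure could find in these libraries. Changes are log2 fold changes ± standard error, and CPM carries the same scaling. Each member is given, and other genes were named by largest change within a list, as a defining regulator, or by likeness of pattern. The members and lists were chosen with earlier results of these data known. Same-numbered DES and T.chuii libraries deviated together (correlations 0.65, 0.43 and 0.20), which does not show that the numbers pair them. DES 2 and T.chuii 3 correlated at 0.58, and DES 3 and T.chuii 2, which share number 4 in the file headers, at -0.07. The corneal-rich DES 1 and T.chuii 1 also correlated with the corneal-rich CON 2, of another number, at 0.56 and 0.51. The part of tissue make-up in these correlations was not tested. Same-numbered libraries correlated at -0.41, -0.29 and 0.35 for CON and DES, and at -0.38, -0.43 and 0.35 for CON and T.chuii. Since the deviations also follow the corneal-rich libraries, these values do not decide whether the numbers pair libraries. Python 3.11.15, pandas 2.3.3, numpy 2.4.6 and matplotlib 3.10.9 were used. Gene coordinates and promoter windows are from RefSeq tables of GRCm38.p6, which held 22534 of the gene IDs.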

Additional observations from a re-analysis of the deposited data

How the results depend on the processing

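No member passed an adjusted p of 0.05 in any of 610 recomputed changes under 21 settings (smallest 0.194, Hspa1b in T.chuii vs CON with sample quality weights), and 41 differed in sign from the reported change, which was at most 0.62 in size there. With the replicate number as a block, Hspb1 in T.chuii vs DES turned to -0.0059, no other member changed sign and no call changed. In the 6 DES and T.chuii libraries alone with the block, a setting chosen after seeing the data, 2 genes were called in T.chuii vs DES, and Hspa1b changed by -0.72 ± 0.18 (limma-voom adjusted p = 0.407). Using log2(FPKM + 1) or log2(FPKM + 0.1), Hspb1 turned to -0.0028 in T.chuii vs DES. With quality weights DES vs CON turned to 0.14 for Dnajb1, -0.11 for Hsp90aa1 and -0.14 for Hspe1, T.chuii vs CON to 0.0647 for Hspb1, and 2 genes were called in T.chuii vs CON. With 2 groups alone, 12 genes were called in T.chuii vs CON. Without CON 2, DES 1 and T.chuii 1, 1 gene was called in T.chuii vs DES and 1 in T.chuii vs CON, and the signs turned to 0.0587 for Dnajb1 and -0.0336 for Hspe1 in DES vs CON, and to -0.0239 for Hspe1 in T.chuii vs CON. With the corneal to rod ratio as a covariate DES vs CON turned to 0.0056 for Dnajb1 and 0.0846 for Hspb1, and T.chuii vs CON to 0.12 for Hspb1. The cause was not tested.

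Leaving out 1 library at a time gave 0 to 15 genes called in DES vs CON, 0 in T.chuii vs DES and 0 to 17 in T.chuii vs CON, the highest counts each without DES 2. It turned signs in DES vs CON for Hspa1a (-0.78 to 0.12), Hspa1b (-0.85 to 0.0191), Dnajb1 (-0.24 to 0.19), Hsp90aa1 (-0.20 to 0.56), Hsp90ab1 (-0.23 to 0.0003), Hspb1 (-0.37 to 0.37), Hspd1 (-0.11 to 0.0374) and Hspe1 (-0.12 to 0.45). In T.chuii vs DES it did so for Hspa8 (-0.10 to 0.23), Hsph1 (-0.0513 to 0.21), Hsp90aa1 (-0.22 to 0.37) and Hspb1 (-0.36 to 0.46), and in T.chuii vs CON for Hsp90aa1 (-0.11 to 0.60) and Hspb1 (-0.33 to 0.41). In T.chuii vs CON, Hspa1b ranged from -1.58 without T.chuii 1 to -0.69 without CON 2. A left-out library leaves a group of 2, and the fit pools its spread with the other groups. The edgeR and DESeq2 tests were not run, because a check by column position did not accept the count column of the irregular rows.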

Other observations

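No gene passed the test in 2 lists of other stress programs. Counts are of log2 changes below 0, which made up 52.4% of all genes tested in DES vs CON, 54.9% in T.chuii vs DES and 55.4% in T.chuii vs CON. Of 25 immediate early genes, which cells switch on within minutes of a stimulus or of tissue handling, 22 were below 0 in DES vs CON (median log2 change -0.29, against -0.02 over all genes tested), 17 in T.chuii vs DES (median -0.13, against -0.03) and 18 in T.chuii vs CON (median -0.51, against -0.04). Junb was at 259, 354 and 178 CPM in CON, 324, 178 and 79.5 CPM in DES, and 155, 64.6 and 74.9 CPM in T.chuii, a change of -1.48 ± 0.50 in T.chuii vs CON (limma-voom adjusted p = 0.986). Like Hspa1b, Junb was highest in the corneal-rich library of each group. Fos was not, standing at 320, 39.2 and 203 CPM in CON, 146, 129 and 34.6 CPM in DES, and 83.5, 27.1 and 34.0 CPM in T.chuii. Nr4a1 had a higher mean in T.chuii vs DES, with a log2 change of 1.62 ± 0.68 (limma-voom adjusted p = 1).

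Of 20 genes of endoplasmic reticulum stress, 17 were below 0 in DES vs CON (median -0.10, against -0.02 over all genes), 11 in T.chuii vs DES (median -0.01, against -0.03) and 15 in T.chuii vs CON (median -0.12, against -0.04). Trib3, a pseudokinase raised by that stress, changed by -1.11 ± 0.40 in T.chuii vs CON, with its highest level, 25.7 CPM, in CON 2. Hspa5, the HSP70 of the endoplasmic reticulum, was at 650 to 976 CPM in the 9 libraries and changed by -0.22 ± 0.21 in T.chuii vs CON.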
